A study of Sus scrofa with 14 samples.

Results

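The genes followed here carry zinc, iron, copper and magnesium across membranes in the pig mammary gland and in pig milk cells. They were chosen by symbol, as every member of the families SLC30A, SLC39A, SLC11A, SLC31A, SLC40A and SLC41A together with CNNM1, CNNM2, CNNM3, CNNM4, ATP7A, ATP7B, TFRC, FTH1, STEAP3 and STEAP4. This gave 39 of the 30071 genes counted, comprising 9 zinc exporters of the SLC30 family, 13 zinc importers of the SLC39 family, 6 iron genes, 4 copper genes and 7 magnesium genes. FTH1, the ferritin heavy chain, had no row under that symbol and is given no level, ATP7B was matched by its identifier through the reference, and SLC39A2 had a symbol in the gene list of the sections but not a single UMI in the gland.

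Mammary glands came from multiparous sows in their second breeding cycle, with 2 sows at each of 5 stages, and 10 libraries of single nuclei were sequenced. The stages were day 90 of gestation (G90), day 0 (L0) and day 20 (L20) of lactation, and days 2 (PI2) and 7 (PI7) of natural involution, the regression that follows the end of suckling. Tissue sections of G90 and PI2 (1 each) were measured by Visium spatial transcriptomics, and milk cells labelled L0 (colostrum) and L20 (mature milk) were measured by single-cell sequencing (1 library each). The title of the L0 milk library carries the letter that marks G90 in the titles of the gland, whereas its source and time labels both give L0 and were followed, and that these libraries are of milk comes from the study's methods, their tissue label being that of the gland. No sow was treated or genetically altered, and each stage was sampled in different sows, so stage and sow are nested.

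Metal ions cannot cross a lipid membrane unaided, and each has its own importers, exporters and reductases. Zinc exporters (ZnT, encoded by SLC30 genes) move zinc out of the cytosol into vesicles or out of the cell, and zinc importers (ZIP, encoded by SLC39 genes) move it into the cytosol. In the lactating gland, zinc and copper are loaded into secretory compartments of the luminal epithelium before milk is released, and defects of SLC30A2 in women and of SLC30A4 or ATP7B in mice give milk poor in zinc or copper. Iron enters most cells bound to transferrin through the receptor TFRC, is reduced by STEAP3, leaves the endosome through SLC11A2 and leaves the cell through ferroportin, encoded by SLC40A1.

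Sequences from RefSeq (Sscrofa11.1) are shown for the genes on which the results turn. Translation of ferritin and of ferroportin is controlled through the iron-responsive element, a hairpin of the messenger RNA that iron regulatory proteins bind. Letters of that form were searched as 5 bases of lower stem, a C, 5 bases of upper stem and the loop CAGTGN, with every upper pair and at least 4 of 5 lower pairs able to form. Among the members they occurred in the 5′ UTR of SLC40A1 and of FTH1. No other member searched, TFRC included, had letters of this exact form in its longest transcript, the only one read. SLC11A2 has no chromosome in the reference and was not searched, so the search does not show that other members lack the element. The loop is in capitals below.
SLC40A1, 5′ UTR, chr15:94161661-94161687, minus strand: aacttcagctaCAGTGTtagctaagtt
FTH1, 5′ UTR, chr2:9535176-9535202, plus strand: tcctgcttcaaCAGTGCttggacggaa

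Of 19560 protein-coding genes searched, 9 (0.0460%) had such letters in the 5′ UTR and 6 (0.0307%) in the 3′ UTR.

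Promoter windows of 250 bases before the annotated start were searched on both strands for the core of the metal response element (TGCACNC or TGCGCNC), the site of the zinc-sensing factor MTF1, and for TTCNNNGAA, the core of a STAT site. The windows below are of the plasma membrane zinc exporter SLC30A1, of 3 of the genes that rose in luminal epithelial nuclei (SLC30A2, SLC39A8, STEAP3) and of STEAP4, which rose in mural nuclei. Capitals mark a match.
SLC30A1, chr9:131633336-131633585, plus strand: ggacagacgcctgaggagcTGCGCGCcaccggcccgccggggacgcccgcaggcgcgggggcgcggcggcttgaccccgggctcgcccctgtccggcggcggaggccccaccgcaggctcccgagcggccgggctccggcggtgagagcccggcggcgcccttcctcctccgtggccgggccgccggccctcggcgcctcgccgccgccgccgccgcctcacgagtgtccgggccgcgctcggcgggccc
SLC30A2, chr6:83484877-83485126, minus strand: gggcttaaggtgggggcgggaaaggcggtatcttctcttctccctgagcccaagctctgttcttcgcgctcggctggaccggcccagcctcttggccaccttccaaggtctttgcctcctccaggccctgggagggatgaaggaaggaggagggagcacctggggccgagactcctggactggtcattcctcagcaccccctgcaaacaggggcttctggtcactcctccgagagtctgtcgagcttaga
SLC39A8, chr8:118604602-118604851, plus strand: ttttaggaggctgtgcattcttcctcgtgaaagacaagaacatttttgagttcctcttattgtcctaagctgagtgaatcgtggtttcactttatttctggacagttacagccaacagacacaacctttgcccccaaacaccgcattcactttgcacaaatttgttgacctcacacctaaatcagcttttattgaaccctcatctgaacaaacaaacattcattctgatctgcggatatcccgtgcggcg
STEAP3, chr15:24736306-24736555, plus strand: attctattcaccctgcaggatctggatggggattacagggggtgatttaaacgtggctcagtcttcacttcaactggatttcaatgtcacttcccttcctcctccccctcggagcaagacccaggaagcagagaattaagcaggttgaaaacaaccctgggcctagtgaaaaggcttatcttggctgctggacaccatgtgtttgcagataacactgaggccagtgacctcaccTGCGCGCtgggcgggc
STEAP4, chr9:68570351-68570600, minus strand: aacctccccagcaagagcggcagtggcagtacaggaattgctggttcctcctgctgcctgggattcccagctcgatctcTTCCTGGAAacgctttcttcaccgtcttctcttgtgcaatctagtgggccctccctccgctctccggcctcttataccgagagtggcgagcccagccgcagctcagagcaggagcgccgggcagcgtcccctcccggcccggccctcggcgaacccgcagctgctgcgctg

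Windows were read for FTH1 and for the other members except SLC11A2, 39 in all. Metal response element letters were present in 9 of these 39 windows (23.1%), against 24.3% of 19556 windows of all protein-coding genes. TTCNNNGAA was present in 3 (7.69%), those of CNNM3, SLC39A9 and STEAP4, against 6.12% of all. The windows of SLC30A2 and SLC39A8 held neither.

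Between 9332 and 18693 nuclei were kept per gland, 126833 in all, with 18700704 to 53161349 UMIs (unique molecular identifiers, each standing for 1 captured RNA molecule) and a median of 1382 to 2496 UMIs per nucleus. Nuclei were gated into 9 classes by marker genes, of which luminal epithelial (70526), fibroblast (11500), endothelial (11150), macrophage (4657), and T and NK (4279) were the most numerous. Myoepithelial (1425), B and plasma (591), mural (546) and adipocyte (462) nuclei were few, and 21697 nuclei stayed ungated. Markers left out of the gates rose in their own class for 7 classes. The exceptions were PLIN5 in adipocyte nuclei (log2 fold change 0.71, adjusted p = 0.560), so the adipocyte gate is not borne out by its held-out marker, and the endothelial class, whose held-out marker EGFL7 had no symbol in the gene lists of the gland. Some held-out markers rose outside their own class too. These were ETS1 (log2 2.60), MCAM (3.21) and PLIN5 (1.04) in endothelial nuclei, and MYLK (2.04) and COL6A3 (1.70) in mural nuclei. The library of L20 replicate 2 stood apart, with 9.97% luminal epithelial nuclei against 29.1% to 83.7% in the others, and it held 384 of the 462 adipocyte nuclei. Over 10115 genes, luminal sums of PI2 replicate 2 were closer to L20 replicate 1 (Pearson r of log2 values 0.898) than to PI2 replicate 1 (0.682), and those of L20 replicate 2 were closer to PI7 replicate 1 (0.920) than to L20 replicate 1 (0.747). PI2 replicate 1 was in turn close to PI7 replicate 2 (0.929). Pairs of libraries shared fewer cell barcodes than uniform draws from a barcode set of assumed size would give (80 against 140 for L20 replicate 1 and PI2 replicate 2). Since that size was assumed, the comparison cannot show whether libraries that look alike are separate. Luminal markers were found in every class, the 13 measured summing to a median of 4110 CPM (counts scaled by total UMIs) in luminal epithelial nuclei and to 407 to 1063 in the other classes. Whether carried-over RNA, misgated nuclei or a class's own expression gave these counts was not tested.

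Levels are given in CPM, summed over the nuclei of a sow or of a class of a sow. Fold changes come from fits with a further scaling of each sum (TMM), which CPM lacks. A fold can therefore differ in size from the ratio of the CPM printed beside it. Averaged over the 10 glands, 30 members had at least 10 CPM, 6 had between 1 and 10, and 3 (SLC30A8, SLC39A2 and SLC39A4) had less than 1. SLC39A2 had 0 UMIs and no symbol in the gene lists of the gland, so whether its 0 is a measured absence is not known. Each class was compared with the unweighted mean of the other classes by edgeR's quasi-likelihood test with the sow as a block, and a gene was called at an adjusted p (Benjamini-Hochberg over all genes) under 0.05 and an absolute log2 fold change over 1. With the sow as a block, the p-values measure how far differences between classes vary from sow to sow, not the spread of levels between sows. Of the 39 members, 34 passed the filter on low counts in this test. They gave 24 rises and 14 falls in 306 member-class pairs, and 19 members were called in at least 1 class (55.9% of members and of all 14204 genes). By group these were 6 of 6 iron genes, 4 of 7 magnesium genes, 2 of 3 copper genes, 4 of 8 zinc exporters and 3 of 10 zinc importers.

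**Figure D1:**
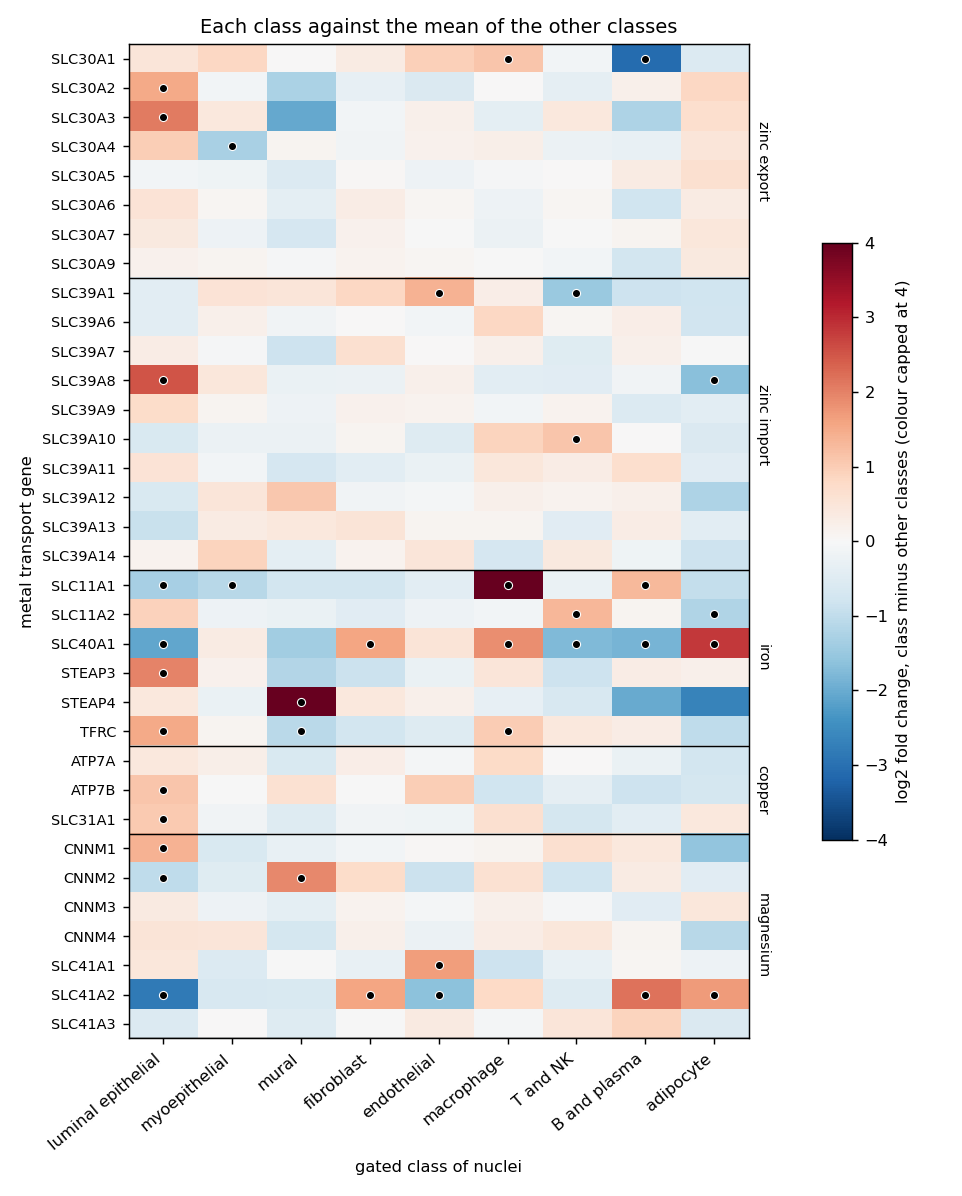
Log2 fold change of each of 34 metal transport genes (rows, by metal) in each of 9 gated classes of nuclei (columns) against the mean of the other classes, with red higher, blue lower and colour capped at 4. Black dots mark the 24 rises and 14 falls that were called, of which 8 rises lie in the luminal epithelial column and the darkest cells are SLC11A1 in macrophages (4.23) and STEAP4 in mural nuclei (4.85).

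In luminal epithelial nuclei, the milk-making cells and their ductal relatives, 8 of 34 members rose (11.1% of all genes tested did) and 4 fell (11.3% of all), with a median log2 fold change of 0.41 for the members and 0.21 for all genes. The members that rose were the zinc exporters SLC30A2 and SLC30A3, the zinc importer SLC39A8, the iron genes TFRC and STEAP3, the copper genes SLC31A1 and ATP7B, and CNNM1 of the magnesium group. Those that fell were SLC40A1, SLC11A1, SLC41A2 and CNNM2. Of 17 alternatives the fall of SLC41A2 was called under all 17, that of SLC40A1 under 16, that of SLC11A1 under 14 and that of CNNM2 under 9. The fall of SLC11A1 was −0.28 without L20 replicate 2, and CNNM2 was not called without that sow, G90 replicate 1, PI7 replicate 1 or either PI2 sow (log2 −0.86 to −0.99). Without L20 replicate 2 the adipocyte class kept 1 sum, of 22 nuclei of PI2 replicate 1. It held 0 UMIs of SLC11A1, SLC30A1, SLC30A2, SLC30A3 and CNNM1. This sum entered the mean of the other classes, so sizes of these genes without L20 replicate 2, in any class, depend on it. How far it moved them was not tested. Iron genes moved both ways, with the uptake receptor and its reductase higher and ferroportin lower. Under DESeq2 the median of all genes in this contrast shifted by −0.40 on the log2 scale, and SLC31A1 and ATP7B were the rises not called there.

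SLC39A8 encodes ZIP8, a plasma membrane importer of zinc that also carries manganese and iron. Its level in luminal epithelial nuclei ran from 133 CPM to 489 CPM over the 10 sows, with a median of 228. In every one of the 10 sows it was higher there than in any other class, and the medians of the other classes lay between 27.0 and 70.0 CPM. The rise was 5.76-fold (log2 2.53, SE 0.16, adjusted p = 5.10e-24, edgeR), and it remained between 2.27 and 2.78 on the log2 scale when each sow was left out in turn. A stricter gate, at which a nucleus needed 3 markers of its class, gave 3.33.

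SLC30A2 (ZnT2), which loads zinc into secretory vesicles, had 2.81, 14.3 and 112 CPM as its lowest, median and highest luminal levels. It exceeded the mean of the other classes in 9 of 10 sows and was 2.88-fold higher (log2 1.53, SE 0.23, adjusted p = 2.06e-08), a size that was 2.48 without L20 replicate 2, 3.26 under the gate of 3 markers, 2.18 under limits of 500 genes and 5% mitochondrial UMIs, 2.56 without the sow block, 1.05 under DESeq2 and 1.38 without PI7 replicate 2. SLC30A3 (ZnT3), best known for filling synaptic vesicles with zinc, ran from 3.64 to 30.1 CPM in luminal nuclei and stood above the mean of the other classes in 10 of 10 sows (log2 2.08, SE 0.25, adjusted p = 2.46e-11). Its size was 3.65 without L20 replicate 2 and 1.43 under DESeq2. For SLC30A2 and SLC30A3 alike, the fit without L20 replicate 2 included the adipocyte sum with 0 UMIs of the gene. SLC30A4 was higher in luminal nuclei in 10 of 10 sows but did not reach the fold limit (log2 0.97, adjusted p = 3.84e-07). It fell in myoepithelial nuclei, the contractile cells around the alveoli (log2 −1.31, SE 0.29, adjusted p = 0.000200, lower in 10 of 10 sows).

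STEAP3, the ferrireductase of endosomes, had luminal levels between 35.8 and 217 CPM (median 86.5) and was above the mean of the other classes in 10 of 10 sows (log2 1.98, SE 0.17, adjusted p = 8.08e-17). TFRC ran from 59.0 to 195 CPM in luminal nuclei, likewise above that mean in 10 of 10 sows (log2 1.51, SE 0.15, adjusted p = 5.30e-14). TFRC also rose in macrophages, by 1.01 on the log2 scale (adjusted p = 1.25e-06, higher in 7 of 10 sows), at the limit of the fold threshold, and it was not called under 6 of 17 alternatives, DESeq2 and leaving out PI7 replicate 1 among them. For SLC40A1 the luminal level was lowest at 1.90 CPM and highest at 30.2, below the mean of the other classes in 10 of 10 sows (log2 −2.09, SE 0.29, adjusted p = 3.79e-09), a call lost under the gate of 3 markers (log2 −1.18).

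The copper importer SLC31A1 (CTR1) had 25.8 to 69.0 CPM in luminal nuclei and was above the mean of the other classes in 10 of 10 sows (log2 1.05, SE 0.17, adjusted p = 2.17e-07). ATP7B, the copper pump of the secretory pathway, ran from 13 to 79.1 CPM and was above that mean in 7 of 10 sows (log2 1.12, SE 0.21, adjusted p = 3.62e-06). Both calls lay close to the fold limit and were lost under DESeq2 (log2 0.68 and 0.76) and under another scaling. They were also lost without L0 replicate 1 and without the adipocyte, mural, and B and plasma classes, an alternative added after seeing the data. That of SLC31A1 was lost as well without PI7 replicate 1 and under limits of 500 genes and 5% mitochondrial UMIs. The related pump ATP7A was called in no class. Under the gate of 3 markers ATP7B stood at 2.61. Luminal nuclei were the highest class for ATP7B in only 2 of 10 sows, whereas endothelial nuclei were highest in 6 and above the mean of the other classes in 8 of 10, just under the fold limit (log2 0.97, adjusted p = 0.000185). CNNM1, of a family tied to magnesium extrusion, had 5.86 to 20.1 CPM in luminal nuclei and was higher in 7 of 10 sows (log2 1.39, SE 0.25, adjusted p = 1.77e-06), with 2.38 without L20 replicate 2. T and NK nuclei, without a call, also stood above the mean for CNNM1 in 7 of 10 sows. They were its highest class in 4 sows, and luminal nuclei in 3. Luminal nuclei were the highest class for SLC31A1 in 3 of 10 sows, TFRC in 4, SLC30A3 in 5, SLC30A2 in 6 and STEAP3 in 7.

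In macrophages 4 of the 34 members rose (9.88% of all genes tested did) and none fell (8.62% of all did), with a median of 0.21 for the members and −0.06 for all genes. SLC11A1 (NRAMP1), which removes iron and manganese from the phagosome, was the clearest. Its level ran from 64.3 CPM (L0 replicate 1) to 566 CPM (L20 replicate 1) with a median of 221, and it was highest of all classes in 10 of 10 sows (18.8-fold, log2 4.23, SE 0.21, adjusted p = 2.03e-30), with 5.34 without L20 replicate 2 and 4.91 under the gate of 3 markers. The fit without L20 replicate 2 included the adipocyte sum with 0 UMIs of SLC11A1. In luminal nuclei the same gene had 1.85 to 27.9 CPM. Besides TFRC, the zinc exporter SLC30A1 rose in macrophages (log2 1.11, SE 0.33, adjusted p = 0.00489, higher in 6 of 10 sows), a call lost under 5 of 17 alternatives, among them leaving out either PI7 sow. Its size was 1.72 without L0 replicate 1, 1.80 without L20 replicate 2 and 1.87 under limits of 500 genes and 5% mitochondrial UMIs.

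Ferroportin, SLC40A1, rose in macrophages and in fibroblasts, where 2 of 34 members rose (9.22% of all genes tested) and none fell (1.43% of all). Macrophage levels were 162 and 48.4 CPM (G90), 477 and 390 (L0), 10.6 and 108 (L20), 388 and 11.2 (PI2), and 117 and 126 (PI7). The lowest of these belonged to L20 replicate 1 and PI2 replicate 2, the libraries whose luminal sums were alike, and in fibroblasts PI2 replicate 2 was again the lowest, at 0 CPM against 21 to 358 CPM in the other 9 sows. The rise was 3.63-fold in macrophages (log2 1.86, SE 0.28, adjusted p = 6.00e-08) and 3.01-fold in fibroblasts (log2 1.59, SE 0.25, adjusted p = 1.88e-07), each in 8 of 10 sows, and both calls were kept without any single sow. The gate of 3 markers gave 3.01 and 2.72. Adipocyte nuclei gave 895 CPM in L20 replicate 2 and 132 CPM in PI2 replicate 1, the only sows with enough such nuclei, and 1 of the 2 lay above the mean of the other classes. The rise there (log2 2.83) fell to 0.25 without L20 replicate 2, where it was not called, and was 3.83 without PI2 replicate 1. Each of these fits leaves 1 sow in the class. The rise was 4.98 under the gate of 3 markers and 3.76 without the sow block. In T and NK nuclei, and in B and plasma nuclei, SLC40A1 fell (log2 −1.78 and −1.87, adjusted p = 7.59e-05 and 0.0178). The first was lost under the gate of 3 markers (log2 −1.05) and the second under 6 of 16 alternatives, DESeq2 and leaving out L0 replicate 1 or L20 replicate 2 (log2 −1.64 and −1.45) among them. The B and plasma sums held 0 to 8 UMIs of the gene, and the fitted size ran from −11.5 under the gate of 3 markers to −1.37 under DESeq2.

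SLC41A2, a magnesium transporter, was the other fibroblast gene, at 43.4 to 121 CPM (log2 1.58, SE 0.21, adjusted p = 5.79e-10, higher in 9 of 10 sows, and 2.29 without the adipocyte, mural, and B and plasma classes, an alternative added after seeing the data). It rose further in B and plasma nuclei, from 80.5 to 460 CPM over 8 sows (log2 2.18, SE 0.30, adjusted p = 3.70e-08, higher in 8 of 8), and in the 2 sows with adipocyte nuclei (log2 1.70, adjusted p = 0.00477). The call in B and plasma nuclei was lost under the gate of 3 markers (log2 1.90, adjusted p = 0.0559). Luminal levels of this gene were 1.71 to 10.8 CPM, a fall of 7.13-fold (log2 −2.83, adjusted p = 1.70e-17), and endothelial levels were 3.26 to 23.4 CPM (log2 −1.64, adjusted p = 3.21e-07). Fibroblast levels in all 10 sows lay above the luminal and endothelial levels of all 10.

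In endothelial nuclei 2 of the 34 members rose (9.65% of all genes tested did) and 1, SLC41A2, fell (2.22% of all did). SLC41A1, a sodium and magnesium exchanger, ran from 11.4 to 72.7 CPM (median 28.0), above the mean of the other classes in 9 of 10 sows (log2 1.67, SE 0.24, adjusted p = 9.76e-09). SLC39A1 (ZIP1), a widely expressed zinc importer, ran from 3.75 to 62.8 CPM and was higher in 10 of 10 sows (log2 1.38, SE 0.24, adjusted p = 1.59e-06). Both were called under all 17 alternatives, SLC39A1 at 2.36 under the gate of 3 markers.

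Mural nuclei, the pericytes and smooth muscle of vessels, were summed in 7 sows, and 2 of the 34 members rose there (6.15% of all genes did) and 1 fell (3.37% of all did). STEAP4, a metalloreductase of iron and copper, had 0 CPM at G90, 23.3 and 0 (L0), 64.7 at L20, 66.1 at PI2, and 216 and 76.4 (PI7). These are small numbers, since the 7 sums held 0, 1, 0, 7, 8, 55 and 15 UMIs of the gene. Mural nuclei were the highest class in 5 of 7 sows, and the rise of 4.85 on the log2 scale (SE 0.39, adjusted p = 2.22e-18) was called under all 16 alternatives that kept the class, at 6.54 under the gate of 3 markers and 4.10 without the sow block. CNNM2 ran from 67.1 to 229 CPM in mural nuclei, above the mean of the other classes in 7 of 7 sows (log2 1.93, SE 0.29, adjusted p = 1.99e-07), and the member that fell was TFRC (log2 −1.09, adjusted p = 0.0325), not called under DESeq2 or another scaling or without L0 replicate 1, L20 replicate 2 or PI7 replicate 1. Its size ran from −3.05 (gate of 3 markers) to −0.67 (without L20 replicate 2).

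Among lymphocytes, 2 of the 34 members rose in T and NK nuclei (8.06% of all genes did) and 2 fell (6.74% of all). In B and plasma nuclei 2 rose (6.55% of all) and 2 fell (6.10% of all). SLC11A2 (DMT1), which carries ferrous iron out of endosomes, had 153 to 333 CPM in T and NK nuclei (median 234) and was the highest class in 8 of 10 sows (log2 1.34, SE 0.15, adjusted p = 1.56e-12). SLC39A10 (ZIP10), a zinc importer with known roles in lymphocytes, ran from 56.6 to 239 CPM there (log2 1.12, SE 0.17, adjusted p = 6.38e-08, higher in 10 of 10 sows), and lost its call without L0 replicate 2, without L20 replicate 2 and under limits of 500 genes and 5% mitochondrial UMIs (log2 0.91 to 1.24 as each sow was left out). SLC39A1 fell in T and NK nuclei (log2 −1.49, adjusted p = 0.000920), though not under the gate of 3 markers (log2 −0.79). In B and plasma nuclei the rise of SLC11A1 (log2 1.29, adjusted p = 0.00817) was seen in only 4 of 8 sows and turned to −0.77 under the gate of 3 markers, was 2.54 without L20 replicate 2, and was not called without PI7 replicate 2. SLC30A1 fell there (log2 −3.08, adjusted p = 0.0297) on a single UMI in 1 of 8 sows, L0 replicate 1. Its fitted size ran from −7.89 without that sow to −1.49 under DESeq2, and it was not called under 8 of 16 alternatives, among them DESeq2 and leaving out G90 replicate 1, L20 replicate 2 or either PI7 sow.

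Myoepithelial nuclei held no rise (7.77% of all genes rose) and 2 falls (5.34% of all), of SLC30A4 and of SLC11A1. The first was lost under the gate of 3 markers, though its size stayed between −1.48 and −1.21 under every alternative. The second was lost under that gate, without the sow block and without L20 replicate 2 (log2 −0.39). SLC39A14 was higher there in 10 of 10 sows (log2 0.88, SE 0.13, adjusted p = 4.06e-08), under the fold limit. Adipocyte nuclei, with 2 sows, held 2 rises (8.69% of all) and 2 falls (5.58% of all), the falls being SLC39A8 and SLC11A2 (log2 −1.68 and −1.19, adjusted p = 0.0399 and 0.0371). Neither rise and neither fall was called without L20 replicate 2, a fit that leaves 1 sow in the class. SLC39A8 stood at −0.10 there and was not called without either PI7 sow, and SLC11A2 was not called without PI2 replicate 1. Over all alternatives the size stayed between 1.57 and 2.10 for SLC41A2 and between −1.78 and −0.97 for SLC11A2.

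**Figure D2:**
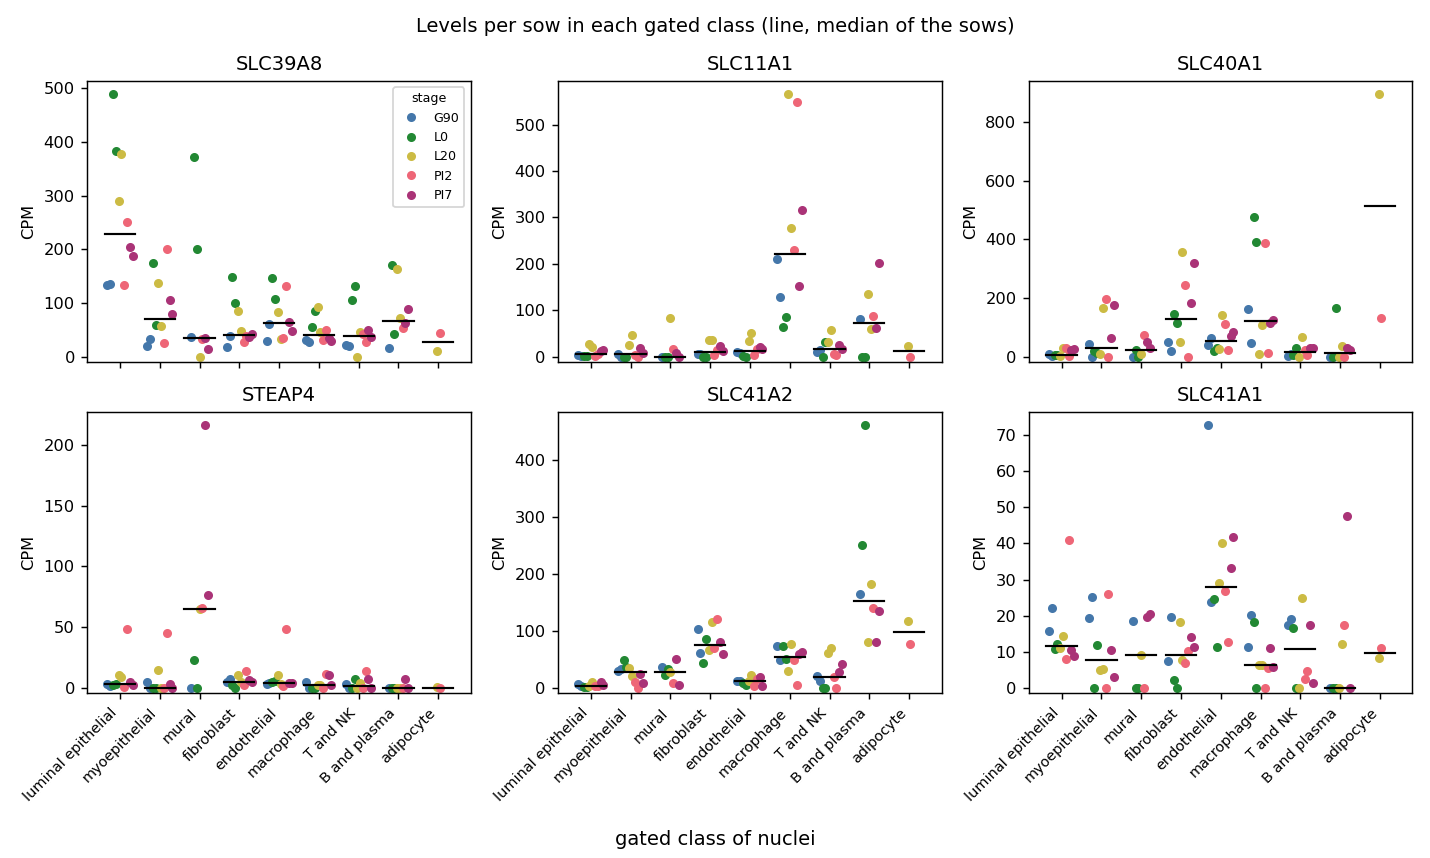
CPM of 6 metal transport genes in each gated class, 1 point per sow coloured by stage, with the median of the sows as a line. All 10 macrophage points of SLC11A1 lie at 64.3 CPM or more, the luminal points of SLC39A8 lie between 133 and 489 CPM, and 1 adipocyte point of SLC40A1, of L20 replicate 2, lies at 895 CPM.

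For 4 of the members that were called in no class the sizes were as follows. SLC30A7 (ZnT7), the zinc exporter of the early secretory pathway, had 161 ± 27.1 CPM over the whole gland (SD, n = 10), and its class differences stayed between −0.67 and 0.46 on the log2 scale. SLC39A14 (ZIP14), an importer of zinc, iron and manganese, had 242 ± 55 CPM, with class differences between −0.82 and 0.88. Apart from its myoepithelial level, it was lower in macrophages (log2 −0.68, adjusted p = 5.12e-05, below the mean of the other classes in 10 of 10 sows). The magnesium genes CNNM3 (45.4 ± 14.1 CPM) and SLC41A3 (10.9 ± 6.88 CPM) stayed within −0.44 to 0.46 and −0.59 to 0.89, and each of the 4 genes had an adjusted p under 0.05 in at least 1 class without reaching the fold limit.

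Other genes of metal handling, a list of 50 of which 42 were tested here, gave 7 rises (11.1% of all genes rose) and 1 fall (11.3% of all fell) in luminal epithelial nuclei. The rises were led by LTF, which encodes the iron-binding milk protein lactoferrin (log2 2.50), and NIPAL2, of a family of magnesium transporters (log2 2.11), and the ferroxidase gene HEPH fell (log2 −1.34). In macrophages 4 rose (9.88% of all genes did) and 3 fell (8.62% of all did). The rises were all among the 23 iron genes of the 42 tested, namely the haem-degrading oxygenase HMOX1 (log2 3.18), the hepcidin regulator HFE (2.22), the ferritin light chain FTL (1.49) and the haem transporter FLVCR2 (1.46). The falls were of STEAP1 (log2 −1.66), NIPAL2 (−1.56) and NIPAL1 (−1.23). STEAP1, of the family of STEAP3 and STEAP4, rose in fibroblasts (log2 1.31).

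Stage was tested on luminal epithelial sums and on whole gland sums, in 1 fit over the 5 stages with adjacent contrasts that share sows. No member was called in any of these tests. In luminal nuclei 38 members were tested, and 10 had an unadjusted p under 0.05 in the test over 5 stages (13.7% of all genes had) and 10 were called by DESeq2 (10.6% of all). The corresponding numbers were 7 and 1 for L0 against G90 (11.2% and 4.11% of all genes) and 8 and 3 for L20 against L0 (13.2% and 4.84%). They were 1 and 0 for PI2 against L20 (3.27% and 0.05%) and 4 and 0 for PI7 against PI2 (2.76% and 0.110%). Calls of edgeR were few among all 19994 genes too, at 0.0950% over the 5 stages, 0.00500% for L0 against G90 and 0% for the other 3 contrasts. With 2 sows per stage the spread within stages was wide, and the differences between stages that follow did not pass the test with edgeR.

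For zinc export, luminal SLC30A2 had 21.3 and 62.2 CPM (G90), 112 and 80.1 (L0), 26.9 and 3.76 (L20), 3.46 and 7.39 (PI2), and 2.81 and 3.38 (PI7). Both L0 sows lay above all others and both PI7 sows lay lowest. L20 was 7.42-fold below L0 (log2 −2.89, SE 0.98, adjusted p = 0.247, −5.38 without L20 replicate 1 and −2.03 without L20 replicate 2), a contrast that DESeq2 called (adjusted p = 0.0299), and the test over 5 stages gave an adjusted p of 0.0839 with edgeR and 9.76e-07 with DESeq2. SLC30A4 followed with 43.0 and 121 CPM (G90), 76.8 and 71.9 (L0), 35.7 and 32.0 (L20), 30.6 and 25.1 (PI2) and 23.0 and 26 (PI7), so that each L0 and G90 sow exceeded each later sow (L20 against L0 log2 −1.55, adjusted p = 0.295).

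SLC30A3 ran the other way, with 5.51 and 4.45 CPM (G90), 3.64 and 4.21 (L0), 26.6 and 11.7 (L20), 15.2 and 30.1 (PI2), and 27.1 and 23.4 (PI7). The 4 sows of G90 and L0 lay below the other 6 (L20 against L0 log2 1.95, SE 0.63, adjusted p = 0.230), and leaving out L20 replicate 1 or 2 moved this contrast to 0.86 or 2.56. DESeq2 called it (adjusted p = 0.0434). For zinc import, SLC39A8 had 134 and 135 CPM (G90), 489 and 383 (L0), 290 and 377 (L20), 133 and 252 (PI2), and 204 and 188 (PI7). Both L0 sows were higher than every other sow. In the TMM-scaled edgeR fit L0 exceeded G90 by 4.19-fold (log2 2.07, SE 0.45, adjusted p = 0.115), more than the ratio of these CPM. DESeq2 called this difference (adjusted p = 0.00301), as did edgeR on the sows of those 2 stages alone (0.0247), a fit for which the share of all genes called is not given here.

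All 4 copper genes stood higher in both L0 sows than in both G90 sows, as 26.4% of all genes did, without passing edgeR's test of this contrast. Over the 5 stages DESeq2 called SLC31A1 and ATP7B (adjusted p = 0.0315 and 0.0324). SLC31A1 had 28.3 and 31.3 CPM at G90 and 69.0 and 63.4 (L0), then 43.3 and 30.1 (L20), 30.4 and 27.4 (PI2), and 41.6 and 25.8 (PI7) (L0 against G90 log2 1.51, SE 0.47, adjusted p = 0.234). The pumps ATP7A and ATP7B were higher in both L0 sows than in both G90 sows as well (log2 1.70 and 1.82, adjusted p = 0.332 and 0.372). ATP7B stood at 79.1 and 70.4 CPM at L0 and 19.3 and 33.1 CPM at G90. On the sows of those 2 stages alone edgeR called SLC31A1, ATP7A and ATP7B (adjusted p = 0.0420, 0.0359 and 0.0444). That fit sets 2 sows against 2, and the share of all genes it called is not given here, so these calls are not read as a result about copper genes. The low level of SLC31A2 was 1.89 and 1.57 CPM (G90), 4.0 and 2.56 (L0), 2.97 and 2.41 (L20), 6.51 and 3.79 (PI2), and 6.82 and 6.45 (PI7), so that both PI7 sows exceeded every sow of G90, L0 and L20 (L0 against G90 2.47-fold higher, adjusted p = 0.431).

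Among iron genes, luminal SLC11A1 had 4.0 and 1.92 CPM (G90), 1.88 and 2.16 (L0), 27.9 and 21.8 (L20), 1.85 and 5.83 (PI2), and 12.1 and 14.2 (PI7) (L20 against L0 log2 3.21, SE 0.70, adjusted p = 0.130). Without either PI2 sow this contrast was called (adjusted p = 0.0482 and 0.0478), and DESeq2 called it over all sows (adjusted p = 0.000233). Macrophage markers in luminal nuclei were also higher at L20 than at L0. The 10 measured summed to 72.0 and 32.1 CPM (G90), 38.4 and 22.9 (L0), 155 and 190 (L20), 58.7 and 45.9 (PI2), and 220 and 201 (PI7), with none of the 10 at 0 in any sow. These sums were highest at PI7, where SLC11A1 stood below its L20 level. Their part in the difference was not tested. STEAP3 stood lower at L0 (35.8 and 62.5 CPM) than at G90 (217 and 99.4 CPM), and the contrast did not pass (log2 −1.22, adjusted p = 0.329).

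For magnesium, SLC41A3 was 2.82 and 2.05 CPM at L0 and 7.55 and 14.3 CPM at L20 (log2 1.66, SE 0.61, adjusted p = 0.282). For the members with the highest levels of their groups the spread over sows was as follows. SLC39A14 ran from 133 to 302 CPM in luminal nuclei over the 10 sows, SLC30A7 from 117 to 251, SLC11A2 from 101 to 233 and CNNM3 from 31.3 to 68.2, with adjusted p of 0.724, 0.908, 0.541 and 0.759 over the 5 stages (edgeR). In PI2 replicate 2, STEAP4 stood at 48.4 CPM in luminal nuclei, against 0.895 to 11 CPM in the other sows. Members whose sows did not overlap between stages were counted on TMM-scaled levels. At L0 against G90, 15 were higher and 6 lower, against 26.4% and 26.2% of all genes. At L20 against L0, 13 were higher and 14 lower, against 21.2% and 26.9% of all genes. At PI2 against L20 the numbers were 4 and 5 (11.4% and 12% of all genes), and at PI7 against PI2 they were 7 and 5 (11.8% and 12.4%).

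**Figure D3:**
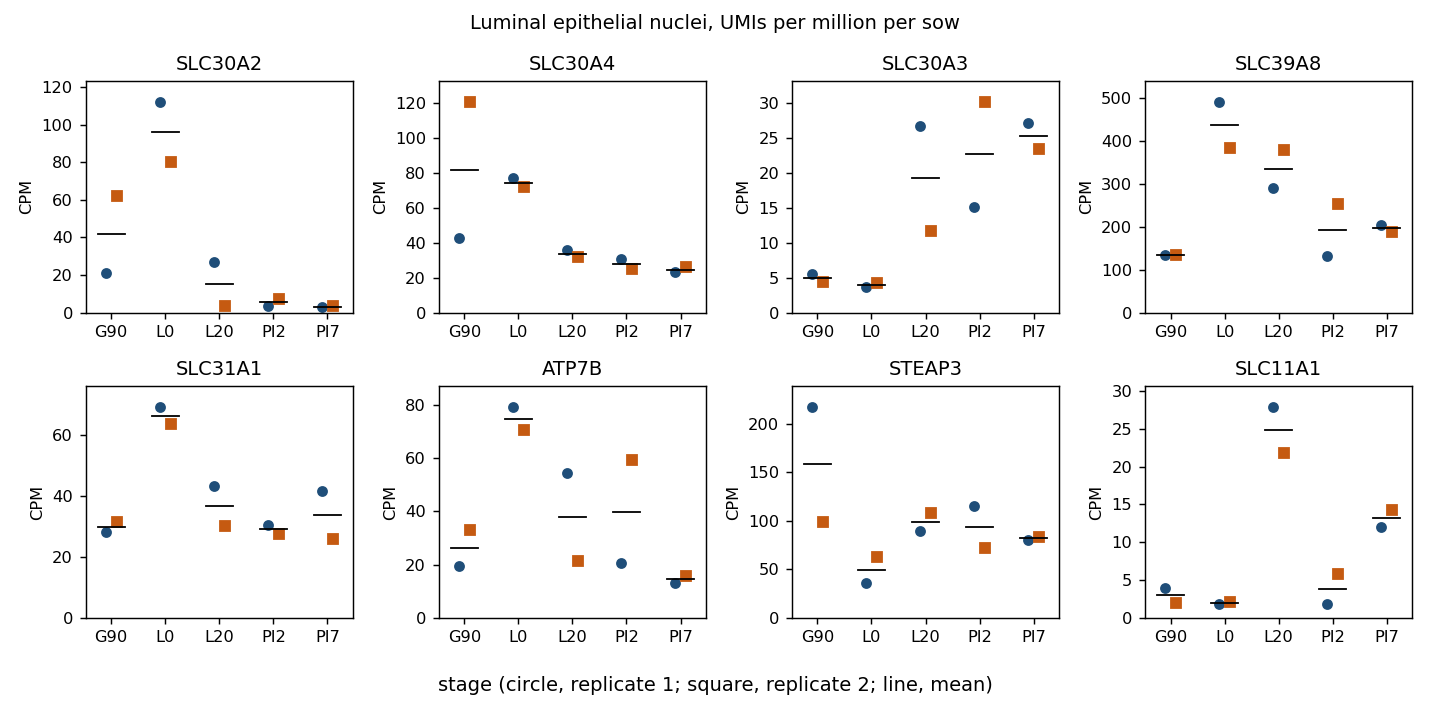
Luminal epithelial CPM of 8 metal transport genes by stage, with 1 point per sow and a line at the mean of the 2 sows. SLC30A2 and SLC39A8 are highest in both L0 sows (112 and 80.1 CPM, 489 and 383 CPM), SLC30A3 is highest from L20 onward, and none of the differences passed the edgeR test.

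Over the whole gland no member was called either, with 0% of 22695 genes called in the test over 5 stages and 0% in each of the 4 adjacent contrasts. DESeq2 called 4 members over 5 stages and 2 for L20 against L0 (6.80% and 5.10% of all genes), and 9 and 8 members had an unadjusted p under 0.05 in those tests (10.1% and 12.8% of all). In such sums fewer cells of a type and less RNA per cell cannot be told apart. SLC40A1 had 216 CPM in L20 replicate 2, the gland with the fewest luminal nuclei, and 2.67 to 67.9 CPM in the other 9, and SLC41A2 had 73.7 CPM there and 3.78 to 29.9 CPM elsewhere.

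Within luminal epithelial nuclei, 3161 dividing nuclei (the 7 sows with at least 20) and 2260 hormone-sensing nuclei (10 sows, gated by ESR1, PGR and related genes) were compared with the 42614 and 52479 luminal nuclei of the same sows that held none of the markers of that state, with the sow as a block. A further 6021 and 15787 luminal nuclei, with too few markers of the state for its gate, entered neither side. No member was called in dividing nuclei (4.07% of 15096 genes were) or in hormone-sensing nuclei (5.53% of 12732 genes were), although 7 and 11 members had an unadjusted p under 0.05 with edgeR, and DESeq2 called none. By adjusted p under 0.05 alone, whatever the fold, 2 members in dividing nuclei and 7 in hormone-sensing nuclei passed, against 11.9% and 18.9% of all genes tested. SLC39A14 stood at 342 ± 111 CPM in hormone-sensing nuclei and 218 ± 51.8 CPM in the others (SD, n = 10), higher in 10 of 10 sows (log2 0.70, SE 0.13, adjusted p = 0.00131). STEAP3 was at 60.5 ± 25 against 99.0 ± 51.0 CPM, lower in 9 of 10 sows (log2 −0.59, SE 0.14, adjusted p = 0.00820).

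Other differences of hormone-sensing nuclei were smaller in size or seen in fewer sows. SLC30A3, SLC40A1, SLC39A7 and SLC39A11 were higher in 8 of 10 sows each, by 0.73, 0.79, 0.59 and 0.44 on the log2 scale, and SLC11A2 was lower in 9 of 10 (log2 −0.49). SLC11A1 had the largest size (log2 −1.02, edgeR adjusted p = 0.0663, higher in 2 of 10 sows). It was called under limits of 500 genes and 5% mitochondrial UMIs, without the filter on low counts and without L0 replicate 2. SLC41A2 did not pass that filter, and was called without it (log2 −1.38) and when some single sows were left out. Under the gate of 3 markers 5 members were called in hormone-sensing nuclei, namely SLC39A14 (log2 1.2), SLC40A1 (1.1), SLC39A7 (1.03), SLC30A3 (1.01) and STEAP3 (−1.55). The share of all genes called under that gate is not given here, so this count has no background to stand against. In dividing nuclei SLC39A8 was lower in 7 of 7 sows (215 ± 122 against 255 ± 140 CPM, log2 −0.37, adjusted p = 0.0279) and SLC39A14 in 5 of 7 (log2 −0.40, adjusted p = 0.0264). Depth moved with both states. Over the sows compared, median UMIs per nucleus ran from 2199 to 5763 in dividing nuclei against 1582 to 3572.5 in nuclei without their markers, and from 3631 to 6411 in hormone-sensing nuclei against 1538 to 2895.5. Among nuclei with at least 2500 UMIs, an alternative added after seeing the data, SLC39A14 differed by 0.67 and STEAP3 by −0.62 between hormone-sensing nuclei and those without the markers, and SLC39A8 by −0.41 for dividing nuclei. Among other metal genes, CP, which encodes the copper ferroxidase ceruloplasmin, was called in hormone-sensing nuclei (46.5 ± 64.8 against 11.2 ± 9.75 CPM, log2 1.60, adjusted p = 0.0212), with 6 of 10 sows higher.

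The sections, of 4721 spots at G90 and 2248 at PI2, gave 42815421 and 17906403 UMIs. A spot can hold several cells, and with 1 section per stage there is no test, so values are given with exact Poisson 95% intervals that cover counting error only. Of 39 members, 38 and 37 had at least 1 UMI, and intervals lay apart for 28, of which 9 were higher and 19 lower at PI2 (26% and 32.2% of all 16538 genes with a UMI in either section). Among genes with 10 CPM or more in either section, 6 of 26 members were higher and 16 lower, against 35.1% and 46.5% of 8921 genes. SLC30A2 had 27.5 CPM (25.9 to 29.1) at G90 and 2.01 CPM (1.41 to 2.78) at PI2, and SLC30A4 had 40.6 and 4.91 CPM. Each was lower at PI2 than at G90 in the nuclei of both sows as well. The other zinc exporters lower at PI2 were SLC30A5 (44.4 and 15.0 CPM), SLC30A7 (43.0 and 15.1), SLC30A1 (19.0 and 8.6), SLC30A6 (19.8 and 10.3) and SLC30A9 (38.8 and 23.1), so that 7 of the 9 were lower. Over the 10 glands, nuclei ran from 60.7 to 116 CPM for SLC30A5, 116 to 197 for SLC30A7 and 41.8 to 62.0 for SLC30A6. These ranges were narrower in fold than the section differences. For SLC30A1 (5.08 to 11.6 CPM) and SLC30A9 (45.7 to 88.2) they were wider.

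Of the 6 iron genes 3 were lower and 3 higher in the PI2 section. TFRC stood at 90.9 CPM (88.1 to 93.8) at G90 and 13.6 CPM (11.9 to 15.4) at PI2, STEAP3 at 146 and 30.2 CPM, and SLC11A2 at 30.5 and 19.6 CPM. STEAP4 (2.92 and 8.49 CPM) and SLC11A1 (2.57 and 5.47 CPM) were higher at PI2. SLC40A1 was higher as well, at 12.7 CPM (11.7 to 13.8) in G90 and 49.8 CPM (46.6 to 53.2) in PI2. In the 224 PI2 spots richest in fibroblast markers (the top 10%) it reached 119 CPM (91.9 to 152), while the spots richest in luminal markers held 28.4 CPM. SLC30A3 stood at 5.42 CPM in the G90 section and 31.2 CPM in the PI2 section, and at 93.9 CPM (80.0 to 110) in the PI2 spots richest in luminal markers.

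SLC39A8 differed less between sections, at 54.1 and 62.8 CPM, and in the spots richest in luminal markers it had 71.2 CPM (62.7 to 80.5) at G90 and 143 CPM (125 to 162) at PI2. The zinc importers SLC39A1 (34.6 and 76.3 CPM) and SLC39A4 (1.92 and 10.8 CPM) were higher in PI2 as well. The 5 zinc importers lower in PI2 were SLC39A14 (28.2 and 11.6 CPM), SLC39A10 (18.2 and 8.21), SLC39A6 (19.8 and 12), SLC39A9 (32.1 and 20.0) and SLC39A7, the ZIP7 of the endoplasmic reticulum (117 and 92.0). Spots richest in endothelial markers held 39.2 CPM (31.6 to 48.2) of SLC41A1 at G90, against 16.3 CPM over all spots.

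**Figure D4:**
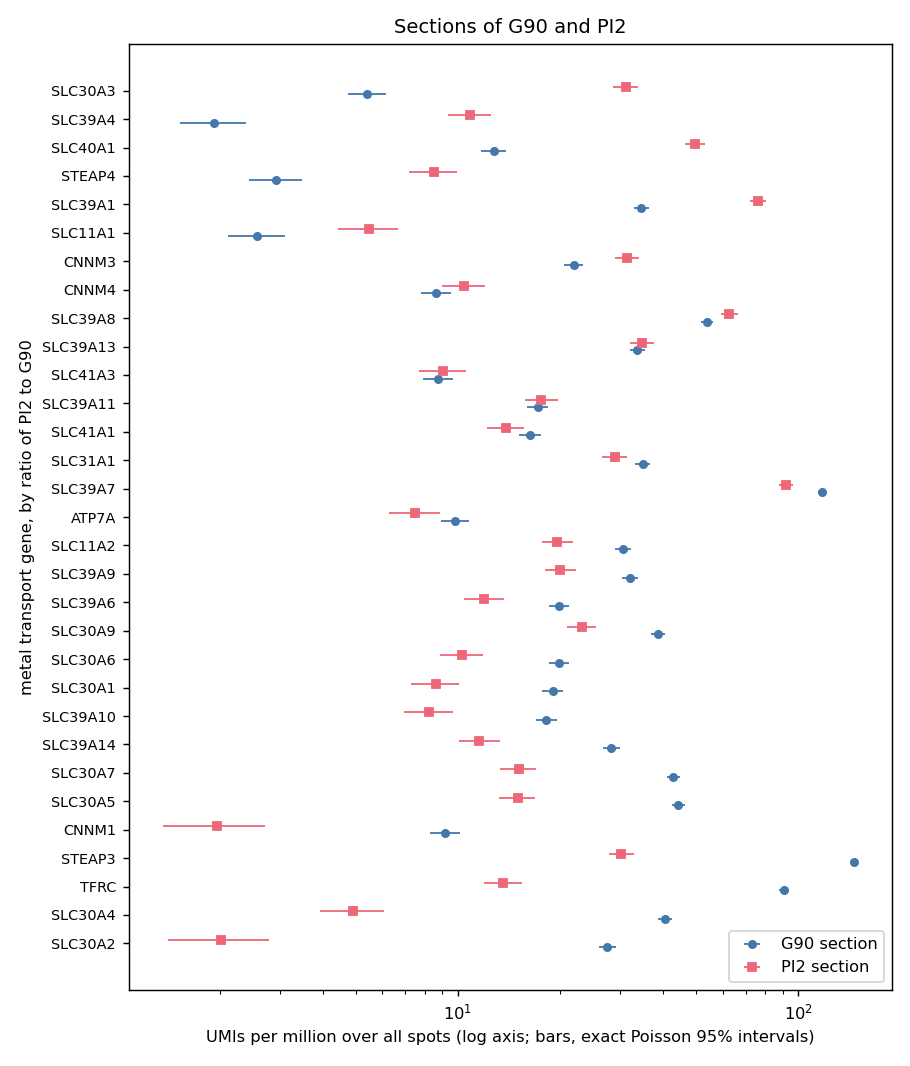
CPM over all spots of the G90 section (circles) and the PI2 section (squares) on a log axis, for members with at least 5 CPM in either section, with exact Poisson 95% intervals. Genes are ordered by the ratio of PI2 to G90, from SLC30A2 (27.5 and 2.01 CPM) at the bottom to SLC30A3 (5.42 and 31.2 CPM) at the top.

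Milk held 17571 cells at L0 and 14514 at L20 after the same limits. Cells gated as neutrophils made up 65.1% and 53.9% of them, luminal epithelial cells numbered 3186 and 1286, macrophages 468 and 1261, and T and NK cells 334 and 1152. The neutrophil gate used CSF3R, MMP8, MMP9, S100A8, S100A12, IL1R2 and TREM1, and no held-out marker checked it. The study named no neutrophils in milk, and used CSF3R, MMP8 and IL1R2 for monocytes and S100A8 for macrophages. It reported more macrophages in colostrum than in mature milk, whereas those gated here were fewer at L0. There was 1 library per stage and no test, and median depth per luminal cell was 16243 UMIs at L0 and 2546 (L20). Over all cells 38 members had a UMI in each library, and intervals lay apart for 11 members higher and 16 lower at L20 (22.3% and 22.8% of all 25860 genes with a UMI in either library). Among genes with 10 CPM or more in either library, 9 of 24 members were higher and 12 lower, against 54.1% and 32.0% of 7394 genes. In sums over all cells the mix of cells, their depth and the level per cell cannot be told apart.

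In luminal milk cells SLC30A2 had 54.9 CPM (53.0 to 56.8) at L0 and 5.67 CPM (4.28 to 7.36) at L20, and SLC30A4 had 43.5 and 28.2 CPM. SLC39A8 was near the same level in both, at 110 CPM (107 to 113) and 116 CPM (109 to 123), against 3.22 to 15.8 CPM in macrophages, neutrophils and T and NK cells. TFRC stood at 76.9 CPM in luminal cells at L0 and 14.6 CPM (L20), but at 161 and 153 CPM in macrophages. SLC40A1 was low in luminal milk cells (1.81 and 1.11 CPM), as it was in luminal nuclei.

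Milk neutrophils carried STEAP4, at 1571 CPM (1552 to 1591) at L0 and 1595 CPM (1572 to 1618) at L20, against 29.8 and 50.4 CPM in luminal cells and 83.9 and 52.5 CPM in macrophages. No neutrophil class was gated in the gland. SLC11A1 was highest in milk macrophages (396 and 454 CPM), as in gland macrophages, with 197 and 218 CPM in neutrophils and 5.78 and 6.07 CPM in luminal cells. SLC39A14 stood at 13.9 CPM (12.1 to 15.8) in L0 neutrophils and 137 CPM (131 to 144) in L20 neutrophils, and at 36.6 and 118 CPM in macrophages. SLC40A1 in neutrophils was 88.9 CPM at L0 and 35.8 CPM (L20).

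T and NK cells of milk had 104 CPM (80.1 to 133) of SLC11A2 at L0 and 96.1 CPM (83.5 to 110) at L20, above luminal cells (25.7 and 16.3 CPM). For copper, the importer-like SLC31A2 (CTR2) stood at 90.8 CPM in L0 macrophages and 23.4 CPM in L20 macrophages, with 3.54 and 3.24 CPM in luminal cells, and the zinc exporter SLC30A1 was likewise higher in L0 macrophages (60.8 and 16.4 CPM). The magnesium transporter SLC41A2 had 0.771 and 0.911 CPM in luminal cells and 15.0 and 14.1 CPM in macrophages.

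**Figure D5:**
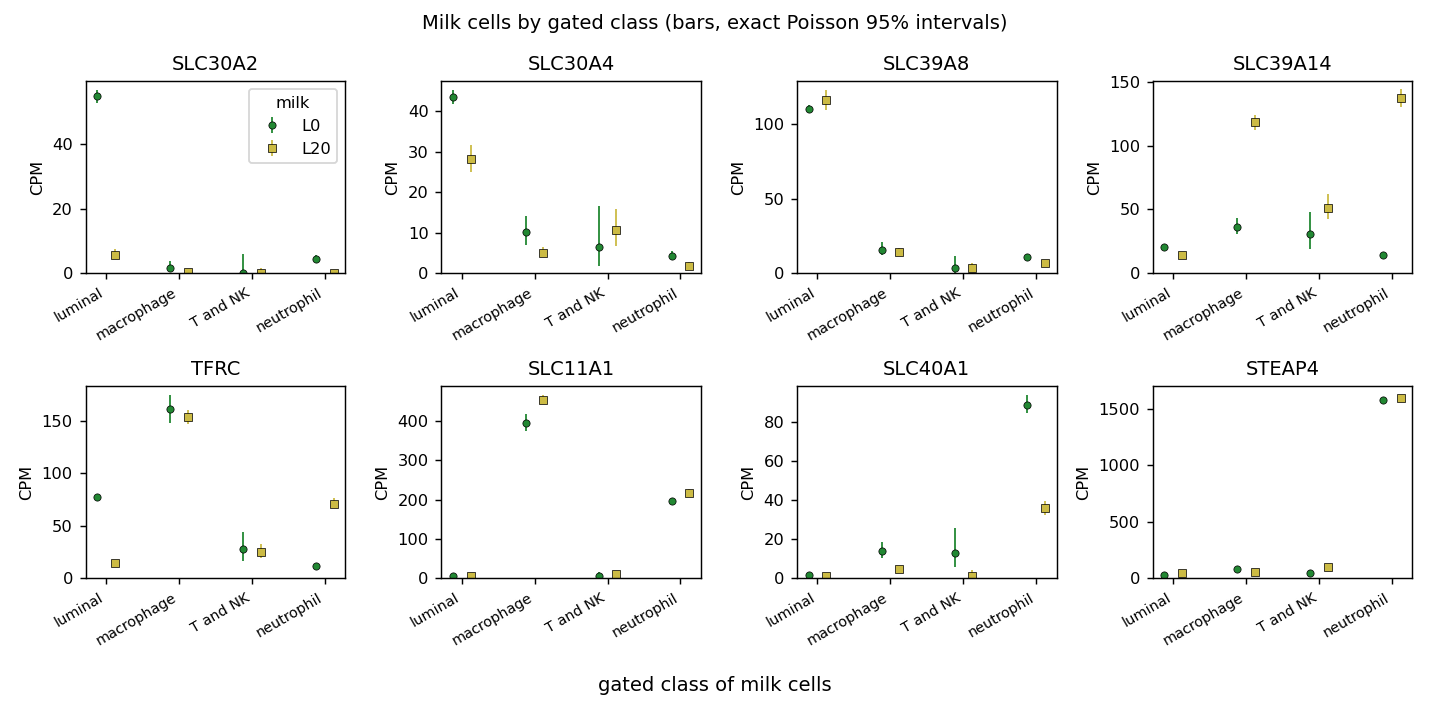
CPM of 8 metal transport genes in luminal epithelial cells, macrophages, T and NK cells and neutrophils of milk at L0 (circles) and L20 (squares), with exact Poisson 95% intervals. STEAP4 stands at 1571 and 1595 CPM in neutrophils, SLC11A1 is highest in macrophages (396 and 454 CPM), and SLC30A2 in luminal cells is 54.9 CPM at L0 and 5.67 CPM (L20).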

How the data were processed

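Nuclei of 10 glands, 2 tissue sections and 2 milk libraries were used. For nuclei and milk cells the authors aligned GEXSCOPE reads to Sscrofa11.1 with CeleScope and deposited UMI counts per gene and barcode. For the sections they deposited UMI counts per gene and spot made with Space Ranger. All counts were whole and not normalized, and the annotation release was not stated. No correction of free RNA and no doublet caller was applied here.

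The genes, marker lists and tests were chosen with earlier results of these data known. Barcodes with under 300 genes or over 25% mitochondrial UMIs were dropped, as in the study. A barcode was gated to the class with most markers detected, at least 2 and more than in any other class, so that a barcode with markers of several classes at equal number stayed ungated. In each sow UMIs were summed per class with at least 20 nuclei, and edgeR 4.0.16 (R 4.3.3) fitted every gene that passed its filter on low counts, with TMM scaling and the quasi-likelihood test, with DESeq2 1.42.0 as an alternative. Sows, not nuclei, are the replicates. In each metal group the gene with the highest mean CPM, the lowest adjusted p over stages and the lowest adjusted p among class rises were named by rule, and the others were named for a call or a known role, after their values were seen. Sections and milk have 1 sample a stage and were not tested. Their intervals cover counting error only. Spots were taken by the top 10% of the share of UMIs in a class's markers.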

Additional observations from a re-analysis of the deposited data

Results flagged for a closer look

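In 22 groups of 7 to 10 sows, 5 had a highest value that stood further from the next than Dixon's 95% limit allows. Chance alone gives about 1 in 20 for draws from 1 normal distribution, but these groups mix 5 stages and include low counts. The 5 groups are therefore listed for a closer look and are not set against that rate. STEAP3 in luminal epithelial nuclei was 217 CPM in G90 replicate 1, against 115 in the next sow. STEAP4 in mural nuclei was 216 CPM in PI7 replicate 1, against 76.4 in the next. SLC41A1 in endothelial nuclei was 72.7 CPM in G90 replicate 1, with 41.7 CPM the next highest. SLC39A1 in endothelial nuclei was 62.8 CPM in L20 replicate 1 and 28.0 CPM in the next sow. SLC41A2 in B and plasma nuclei was 460 CPM in L0 replicate 2, and the next sow had 250 CPM. The class rises of these 5 genes were called without the sow named.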

How the results depend on the processing

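Of the 24 class rises, 15 were called under every alternative, and of the 14 falls 2 were, those of SLC41A2 in luminal epithelial and endothelial nuclei. The higher pairs numbered 41 and the lower pairs 7 under a gate of 3 markers, and 22 to 28 and 7 to 15 with each sow left out, the lower count of 7 being without L20 replicate 2. Shares of all genes under the class alternatives are not given, so counts under them show only how member calls moved. Without L20 replicate 2 the adipocyte class rests on 1 sum of 22 nuclei, which enters the mean that every other class is set against. Under DESeq2 the median class difference of all genes shifted by −0.40 in luminal epithelial nuclei and by 0.36 in B and plasma nuclei. The rise of SLC11A1 in B and plasma nuclei reversed to −0.77 under the gate of 3 markers. Leaving out the adipocyte, mural, and B and plasma classes, an alternative added after seeing the data, gave 17 rises. SLC30A3 was not tested without G90 replicate 1 or either PI7 sow, since it did not pass the filter there.

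Member calls in the luminal adjacent contrasts, 0 as reported, were 4 with DESeq2, 2 without the filter, 4 on the 2 stages alone, for which no share of all genes is given, and 0 to 1 with each sow left out. Over 5 stages they were 10 with DESeq2, 6 without the filter and 0 to 2 with each sow left out (1 without either L20 sow, 2 without either PI2 sow). In the whole gland the adjacent contrasts gave 2, 1 and 1 under the same alternatives, and the test over 5 stages gave 4 with DESeq2, 2 without the filter and 0 to 2 with each sow left out, the 2 being SLC11A1 and STEAP4 without PI2 replicate 1. Among all genes, edgeR called 19 over 5 stages in luminal nuclei, DESeq2 2111 and edgeR without the filter 1284, and for L0 against G90 these numbers were 1, 821 and 293. In the whole gland over 5 stages they were 0, 1544 and 614. Members called in hormone-sensing nuclei were 1 under 500 genes and 5% mitochondrial UMIs, 5 under the gate of 3 markers, 4 without the filter and 0 to 2 with each sow left out, and 0 among nuclei of at least 2500 UMIs, added after seeing the data. Shares of all genes called in that state under these settings are not given. The cause of these differences was not tested.

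Replicate numbers name different sows at each stage. The correlation of replicate differences between stages ran from −0.47 to 0.36 in the whole gland, so the numbers do not pair sows. The replicate block left the member calls over stages at 0 and gave 7 genes over 5 stages in luminal nuclei instead of 19.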
